A study of Rattus norvegicus with 18 samples.

Results

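Mitosis and spindle genes encode the proteins that carry a cell from G2 through chromosome condensation, spindle assembly, chromosome segregation and the cut between the daughter cells. A list of 50 such genes was followed in rat bone marrow MSCs, and its members were taken by gene symbol from a list drawn up with earlier results of these data known. On the array, 36 of the 50 have a probe with that symbol, 1 probe each. Of these 36, 32 were detected in at least 1 group and were tested, among 9531 tested genes in all. Bub3, Ccnb1, Cdc25b and Cdc25c have a probe that was detected in no group. Birc5, Kif11, Kif2c, Kif4a, Cenpe, Nuf2, Spc24, Espl1, Pttg1, Ncapg, Ncapd2, Ncaph, Anln and Nek2, 14 genes in all, have no probe with their symbol in the annotation used here and were not analysed.

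The cells were mesenchymal stromal cells (MSCs), the plastic-adherent stromal cells of the marrow that can give rise to bone and fat cells, taken from male Sprague Dawley rats. Donors of 3 weeks gave the young cells (yMSCs) and donors of 12 months the aged cells (aMSCs), no transgene or drug is named for either, and all were grown in the same expansion medium. Total RNA was hybridised to RatRef-12 BeadChips after passage 2 (P2), passage 30 (P30) and passage 100 (P100), with 3 arrays in each of the 6 groups and 18 in all. The comparisons ask how the genes differ between the primary culture at P2 and the same kind of cells after long culture, and whether donor age matters at each passage. Neither the labels nor the methods say whether the 3 arrays of a group come from separate animals or cultures, and the study's text speaks of the long-term cells as a pair of cultures, aged and young. The late arrays of a donor age may thus share a culture, in which case donor age cannot be told apart from culture at P30 and P100, and p-values measure only the spread between these arrays, which may be technical.

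Values are log2 signals after background correction and quantile normalization between arrays, and detected means a mean detection p of at most 0.01 over the 3 arrays of a group. The words rose, fell and called are kept for genes with a fold of at least 1.5 whose p from limma, adjusted over all tested genes, was under 0.05. On the scanner scale, undetected probes had a median intensity of 31.3 to 34.72 at P2 (6 arrays) and 51.6 to 56.19 later (12 arrays), and detected probes stood 6.07 to 7.14 times above that level at P2 and 4.19 to 5.14 times later. This step lies between P2 and both later passages, so any effect of the scan or hybridisation cannot be told apart from passage in a comparison with P2. Over all tested genes, array 1 of yMSCs P30, array 3 of aMSCs P30 and array 2 of aMSCs P100 lay farther from the other 2 arrays of their group, with an SD of the log2 difference of 0.44 to 0.63, than those 2 lay from each other, 0.23 to 0.29. Of 8 stromal markers with a probe, 6 to 8 were detected in each group, though their levels moved: from P2, 6 fell and 1 rose in aMSCs P30, 4 fell and 3 rose in aMSCs P100, and in yMSCs 1 fell and 2 rose at P30 and 1 fell and 1 rose at P100. Of all tested genes, 16.4% to 20.6% were called higher and 16.4% to 20% lower in these 4 comparisons. The part of the stromal markers in the members' change was not tested. Of 3 lymphocyte markers with a probe, Cd3e was detected in aMSCs P2, yMSCs P30 and aMSCs P30, and no endothelial, erythroid or neutrophil marker was detected in any group.

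Entry into mitosis is driven by Cdk1 bound to cyclin A or B. Plk1, the Aurora kinases and Ttk then build the spindle and attach it to the kinetochores, and the spindle checkpoint holds Cdc20 back until all chromosomes are attached. Cdc20 then activates the anaphase-promoting complex (APC/C), a ubiquitin ligase that sends cyclin B and securin to destruction, and the centralspindlin proteins and Ect2 place the cleavage furrow. Transcripts of most of these genes are low in resting cells and peak in G2 and M, through promoters that bind the DREAM complex or the MuvB and B-Myb complex at an element called the cell cycle genes homology region (CHR), often beside CCAAT boxes bound by NF-Y. In a growing culture their level therefore follows, among other things, how many cells are in G2 and M. The roles given here are those known from vertebrate cells in general.

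The stretch just before the transcription start is shown for 4 members whose promoters carry both elements and that stand at different steps, namely Cdk1 and Ccnb2 for entry, Plk1 for the spindle and Cdc20 for exit. Each run holds 120 bases upstream of the start, 5′ to 3′ on the strand of the gene, from the RefSeq annotation of GRCr8, and capitals mark CCAAT (or ATTGG, the same box on the other strand) and the CHR letters TTTGAA or TTTAAA.
Plk1, chr1:186147538-186147657, plus strand: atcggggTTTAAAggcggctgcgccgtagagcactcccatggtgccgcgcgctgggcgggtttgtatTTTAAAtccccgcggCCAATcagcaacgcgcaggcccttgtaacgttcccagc
Cdc20, chr5:137255800-137255919, minus strand: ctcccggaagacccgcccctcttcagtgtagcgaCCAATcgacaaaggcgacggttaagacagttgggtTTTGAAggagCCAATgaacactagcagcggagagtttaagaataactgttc
Ccnb2, chr8:79981659-79981778, minus strand: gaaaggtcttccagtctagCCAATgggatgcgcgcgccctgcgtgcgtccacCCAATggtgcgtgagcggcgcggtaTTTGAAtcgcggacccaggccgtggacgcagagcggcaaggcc
Cdk1, chr20:19265173-19265292, plus strand: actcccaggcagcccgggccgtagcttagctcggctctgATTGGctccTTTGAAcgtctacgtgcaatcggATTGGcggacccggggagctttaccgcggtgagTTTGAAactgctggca

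In these runs the Plk1 promoter has a CHR 53 bases and a CCAAT box 38 bases before the start, and Ccnb2 has its CHR 43 bases before the start with CCAAT boxes at 68 and 101. Cdc20 has a CHR at 51 with boxes at 41 and 86, and Cdk1 has a CHR at 16 and at 72 with boxes at 49 and 81. A promoter was found in the RefSeq table for 26 of the 32 tested members. Over the 250 bases before the start, both strands searched, 19 of the 26 (73.1%) held CCAAT, against 34% of all 33469 promoters in the table, and 13 (50%) held it at 2 or more places, against 9.42%. The letters TTTGAA or TTTAAA stood in 20 of 26 (76.9%), against 25.4% of all promoters, and both elements in 17 (65.4%), against 9.04%. Bub1b, Mad2l1, Melk and Ndc80 held neither in this window, as did 49.6% of all promoters. The search on the other strand takes ATTGG and TTCAAA, no box overlaps a CHR in the 4 runs shown, and a match is only a match of letters.

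The genes were higher at P30 and at P100 than at P2 in cells of both donor ages. In yMSCs, 31 of 32 members rose from P2 to P30 and none fell, where 16.4% of all tested genes were called higher and 16.4% lower. In aMSCs, 30 rose and none fell, against 19.3% of all genes higher and 20% lower. From P2 to P100 all 32 rose in yMSCs, against 20.6% higher and 18.7% lower over all genes, and 29 rose and none fell in aMSCs, against 19.1% higher and 18.6% lower. These counts use fitted folds. They include Mad2l1, Kif15, Cdca3 and Melk, which were detected in neither group of P2. Those genes were tested only because later groups detected them, so they could hardly have been called lower than P2. Over the 28 members detected in all 6 groups the median log2 change to P30 and P100 was 1.73 and 1.92 in yMSCs. In aMSCs it was 1.87 and 1.38. Some members were detected on no array of P2 and have only a lower bound. At P100 it was under 1.5-fold for Melk in yMSCs (1.32) and aMSCs (1.40), and for Mad2l1 in aMSCs (1.28). The comparisons with P30 and with P100 within a donor age share the 3 arrays of P2 and are not independent of each other.

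The median change of the 32 members from P2 to P30 was 1.71 on the log2 scale in yMSCs (3.27-fold) and 1.82 in aMSCs (3.53-fold). From P2 to P100 it was 1.84 in yMSCs (3.58-fold) and 1.30 in aMSCs (2.46-fold), while the median over all tested genes lay between 0.03 and 0.06 in these 4 comparisons. With the members that no array of P2 detected set to their lower bound the medians were the same to 2 decimals. Only 2 or 3 members were so set in each comparison, which can hardly move a median of 32. The single changes ran from 0.70 to 2.61 in yMSCs P30, from 0.19 to 2.84 in aMSCs P30, from 0.63 to 2.66 in yMSCs P100 and from -0.02 to 2.38 in aMSCs P100. For 22 of the 32 members, all 12 later arrays read above all 6 arrays of P2, which held for 11.6% of all tested genes. The other 10 were Cdc20, Ube2c, Mad2l1, Aurka, Prc1, Ect2, Cdca3, Smc4, Nusap1 and Cks2. In bulk RNA, more cells in G2 and M and more transcript in each such cell cannot be told apart.

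**Figure D1:**
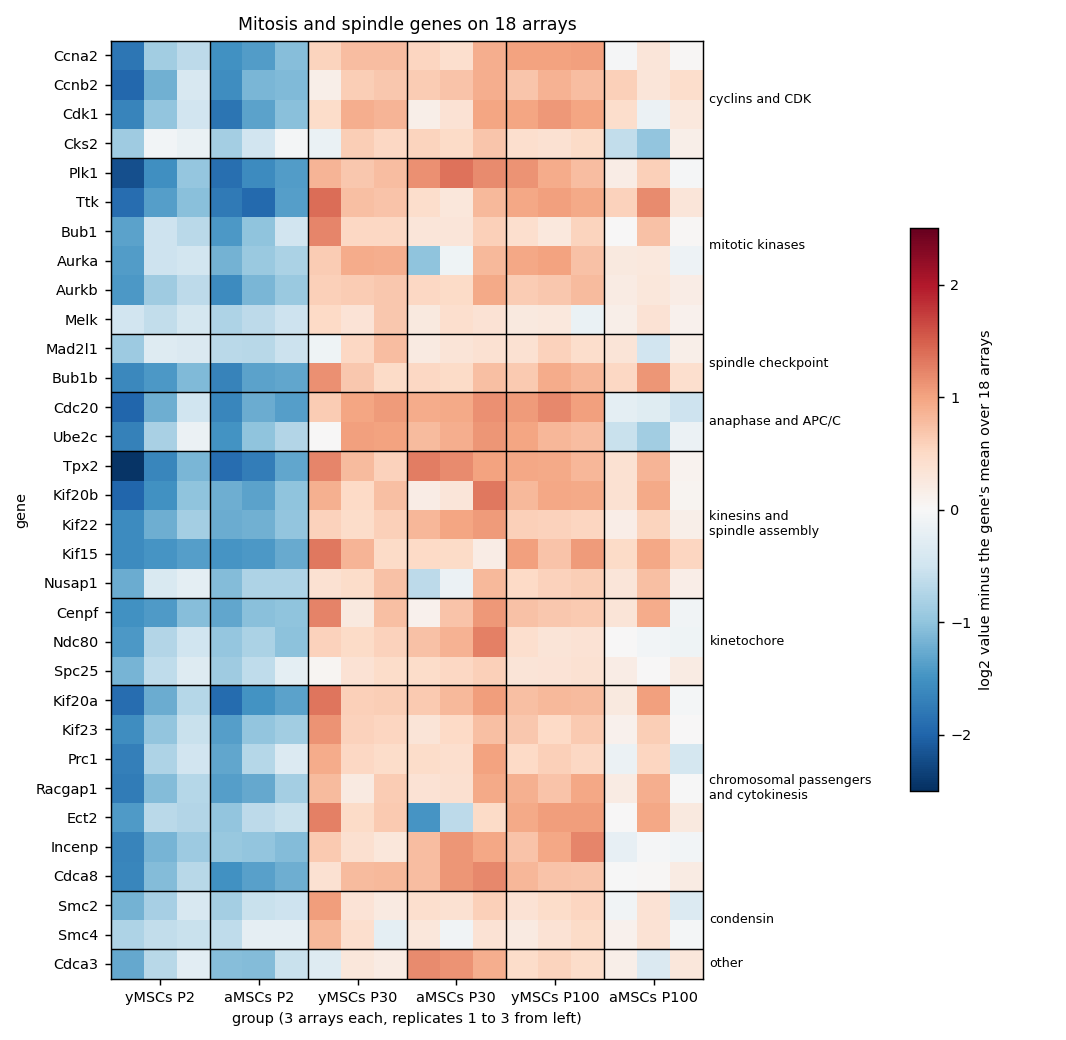
Log2 signal of each of the 32 tested members (rows, grouped by role) on each of the 18 arrays (columns, by group), shown as the difference from that gene's mean over all 18 arrays. The 6 columns of P2 are below the mean for nearly every gene, the P30 columns and those of yMSCs P100 are mostly above it, and the 3 columns of aMSCs P100 lie between, with Cks2, Smc4 and Ube2c having the smallest change from aMSCs P2.

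The P2 arrays were themselves spread. Array 1 of yMSCs P2 was the lowest of its group for 31 of the 32 members and array 3 the highest for 28, and in aMSCs P2 array 1 was the lowest for 26 and array 3 the highest for 28. Averaged over the members, the deviation from each gene's mean was -1.53, -0.95 and -0.64 in yMSCs P2, while in aMSCs P2 it was -1.31, -1.07 and -0.87. On the later arrays it ran from 0.06 to 0.37 in aMSCs P100 and from 0.41 to 0.85 in the other 3 groups, so that no later array overlapped P2 in this mean. Without array 1 of yMSCs P2 the members' median change in yMSCs was 1.46 to P30 and 1.60 to P100, and without array 3 it was 1.94 and 2.08.

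**Figure D2:**
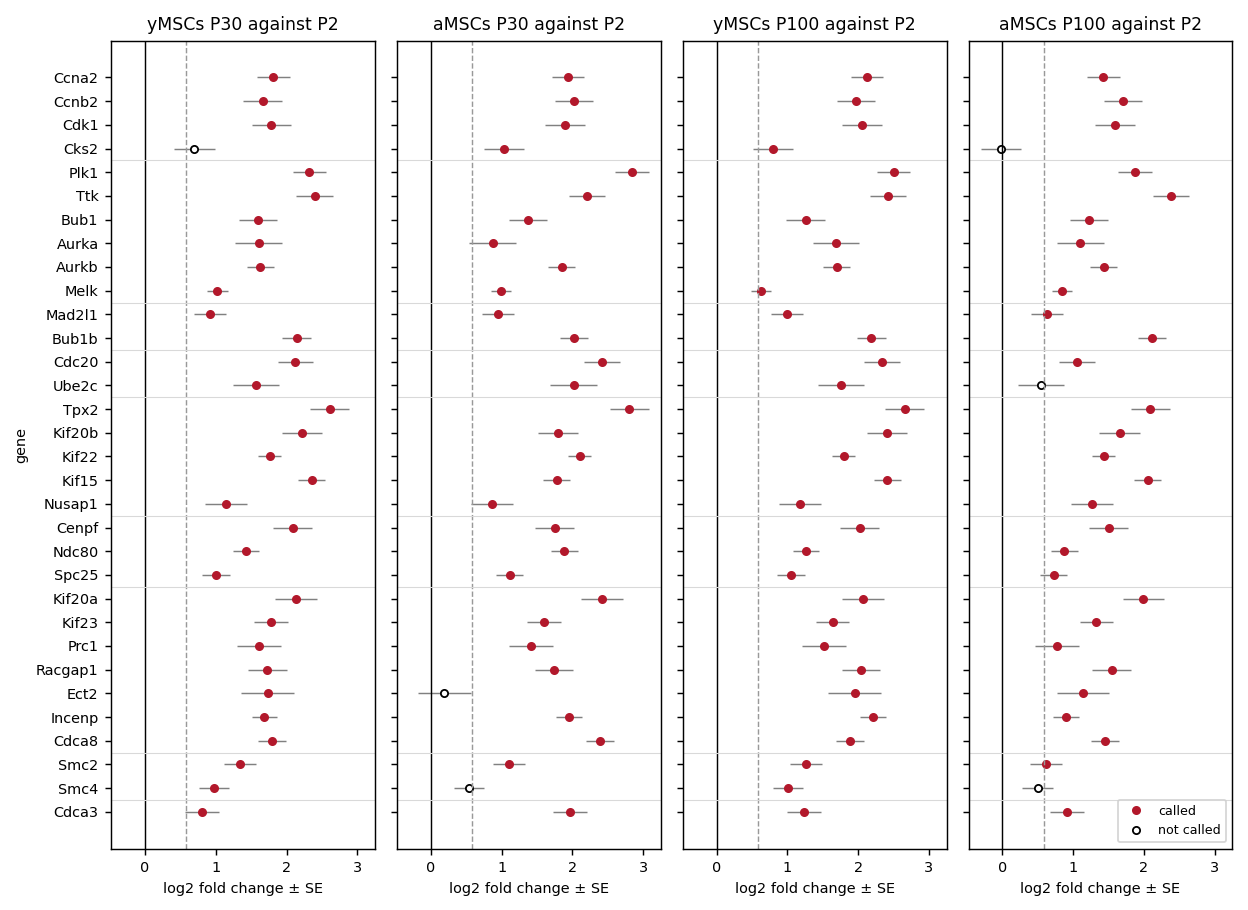
Log2 fold change from P2 of each tested member, with its standard error, in yMSCs and aMSCs at P30 and at P100; filled points were called, open points were not, and the dashed line marks a fold of 1.5. Only Cks2 in yMSCs P30, Ect2 and Smc4 in aMSCs P30, and Cks2, Ube2c and Smc4 in aMSCs P100 are open.

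Of the cyclins and their kinase, Ccna2 (cyclin A2), Ccnb2 (cyclin B2) and Cdk1, the kinase they activate, rose in all 4 comparisons with P2. Ccnb2 read 8.27, 9.02 and 9.83 on the yMSCs P2 arrays, 8.67, 9.08 and 9.12 at P2 in aMSCs, 10.38, 10.84 and 10.89 in yMSCs P30, 10.87, 10.94 and 11.14 in aMSCs P30, 10.92, 11.09 and 11.00 in yMSCs P100, and 10.82, 10.52 and 10.66 in aMSCs P100. All 12 later arrays lie above all 6 of P2. Its change to P100 was 1.97 ± 0.27 (SE) in yMSCs (3.91-fold, adjusted p = 1.54e-05 by limma) and 1.71 ± 0.27 in aMSCs (3.26-fold, adjusted p = 7.15e-05). Cdk1 rose 3.44-fold and 4.16-fold in yMSCs and 3.72-fold and 3.01-fold in aMSCs, to P30 and P100 respectively, and Ccna2 3.51-fold, 4.37-fold, 3.84-fold and 2.69-fold in the same order.

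Cks2, a small subunit that binds Cdk1, changed least of the class. It read 9.83, 10.66 and 10.56 in yMSCs P2 and 9.88, 10.25 and 10.68 in aMSCs P2, then 10.56, 11.35 and 11.24 in yMSCs P30, 11.29, 11.20 and 11.42 in aMSCs P30, 11.14, 11.11 and 11.21 in yMSCs P100, and 10.11, 9.74 and 10.88 in aMSCs P100. The last group overlaps P2, reaching both under and over it, and its change from P2 was -0.02 ± 0.28 (adjusted p = 0.954). Cks2 rose in aMSCs P30 (2.05-fold, adjusted p = 0.00635) and in yMSCs P100 (1.74-fold, adjusted p = 0.0271), but the latter call was lost without array 1 of yMSCs P2 (adjusted p = 0.15) or without any array of yMSCs P100 (adjusted p of 0.0548 to 0.0682). In yMSCs P30 the change was 0.70 ± 0.28 with overlapping arrays and an adjusted p of 0.0577.

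All 6 tested mitotic kinases rose in all 4 comparisons with P2 by the fitted fold, though the lower bound of Melk was under 1.5-fold at P100. Plk1, which acts at the centrosomes, the kinetochores and the midbody, had the largest mean change of the class. Its log2 signal was 5.62, 6.30 and 6.86 in yMSCs P2 and 5.95, 6.25 and 6.43 in aMSCs P2, against 8.67, 8.50 and 8.59 in yMSCs P30, 8.97, 9.18 and 9.01 in aMSCs P30, 8.95, 8.76 and 8.59 in yMSCs P100, and 8.02, 8.42 and 7.80 in aMSCs P100. No array of P2 reached a later one. In yMSCs the mean went from 6.26 ± 0.62 (SD, n = 3) at P2 to 8.59 ± 0.09 at P30, a 5.01-fold rise (adjusted p = 9.38e-07), and 6.21 ± 0.24 and 9.05 ± 0.11 in aMSCs, a 7.17-fold rise (adjusted p = 1.29e-07). At P100 the rise over P2 was 5.66-fold in yMSCs and 3.66-fold in aMSCs.

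Ttk (Mps1), the kinase that starts the checkpoint signal at kinetochores, rose 5.26-fold and 5.36-fold in yMSCs and 4.61-fold and 5.22-fold in aMSCs, to P30 and P100. Aurkb, the kinase of the chromosomal passenger complex, rose 2.70-fold to 3.60-fold, and Bub1, another checkpoint kinase, 2.34-fold to 3.01-fold. Melk, a kinase of G2 and M, was detected on no array of P2, so its fold has only a lower bound. It read 4.82, 4.68 and 4.86 in yMSCs P2, 4.52, 4.65 and 4.79 in aMSCs P2, 5.79, 5.65 and 5.98 in yMSCs P30, 5.54, 5.71 and 5.66 in aMSCs P30, 5.54, 5.57 and 5.13 in yMSCs P100, and 5.44, 5.66 and 5.40 in aMSCs P100. Against the lowest detected signal of the P2 arrays it was at least 1.74-fold higher in yMSCs P30 and at least 1.54-fold in aMSCs P30, but only at least 1.32-fold in yMSCs P100 and at least 1.40-fold in aMSCs P100, both under the fold asked of a call. In yMSCs P100 it was detected on 2 of 3 arrays, and its fitted fold fell under 1.5 without array 2 of yMSCs P2 or without array 1 or 2 of yMSCs P100.

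Aurka, the kinase that matures centrosomes, was uneven in aMSCs P30. Its signal there was 5.76, 6.65 and 7.58, against 5.57, 5.84 and 5.96 in aMSCs P2 and 7.40, 7.68 and 7.66 in yMSCs P30, so array 1 lay within P2 and array 3 at the level of the young cells. The rise of 1.83-fold in aMSCs P30 (adjusted p = 0.0357) was lost without array 3 of that group (log2 change 0.42, adjusted p = 0.217), as well as without its array 2 or without array 1 or 2 of aMSCs P2 (adjusted p of 0.0747, 0.11 and 0.068). In the other 3 comparisons with P2 Aurka rose 2.14-fold to 3.22-fold, with all later arrays above P2.

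**Figure D3:**
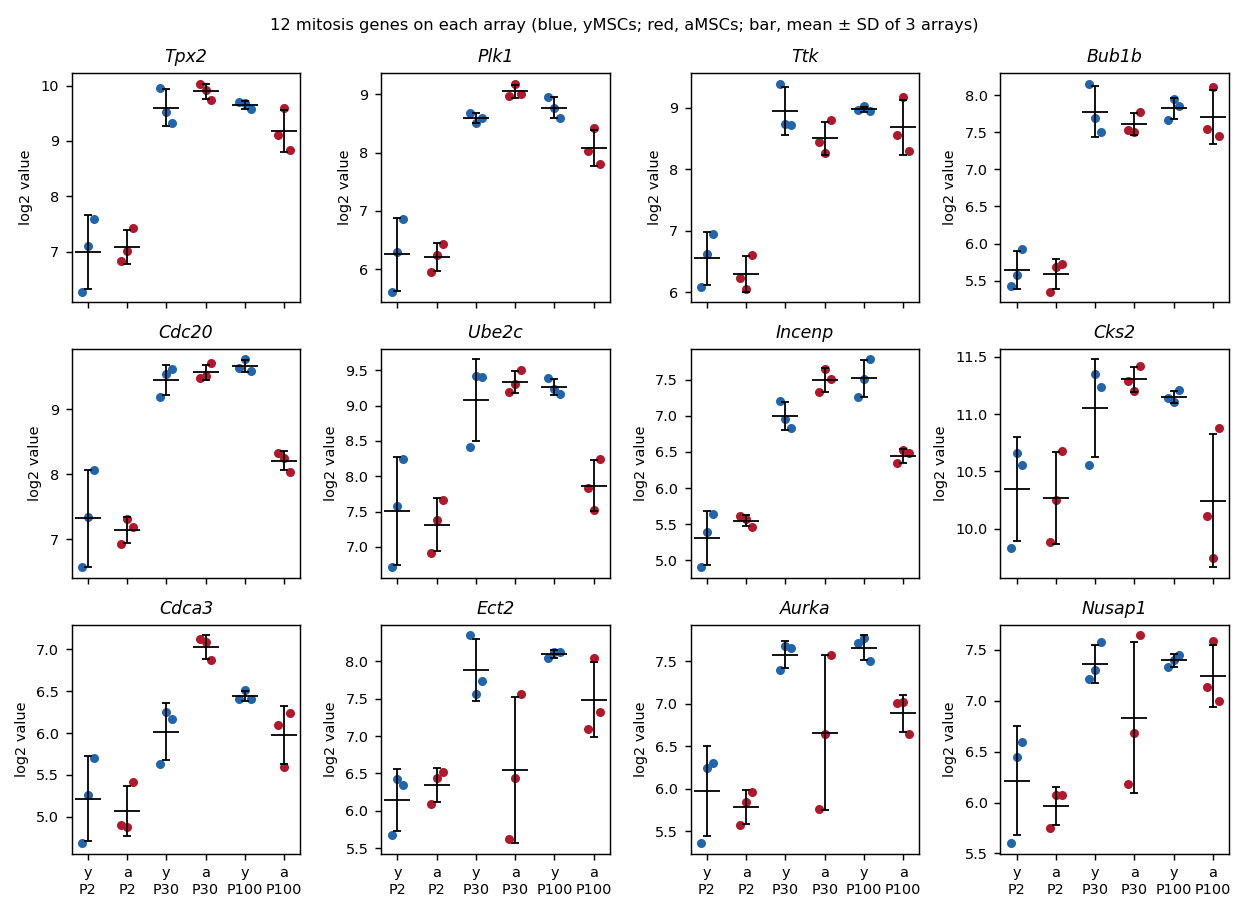
Log2 signal of 12 members on each array (points) with the mean and SD of the 3 arrays of each group, yMSCs in blue and aMSCs in red, against P2, P30 and P100. Plk1, Tpx2, Ttk and Bub1b stay high from P30 to P100 in yMSCs, Cdc20, Ube2c, Incenp, Cks2 and Cdca3 are lower in aMSCs P100 than in aMSCs P30, and Ect2, Aurka and Nusap1 have 2 low arrays in aMSCs P30.

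The spindle checkpoint delays anaphase while a kinetochore is free. Bub1b (BubR1), a subunit of the complex that binds Cdc20, read 5.42, 5.58 and 5.92 in yMSCs P2, 5.35, 5.68 and 5.72 in aMSCs P2, 8.16, 7.69 and 7.50 in yMSCs P30, 7.54, 7.51 and 7.78 in aMSCs P30, 7.67, 7.95 and 7.86 in yMSCs P100, and 7.55, 8.12 and 7.45 in aMSCs P100. The later arrays do not overlap P2, and the 4 late groups overlap one another. The rise was 4.41-fold and 4.55-fold in yMSCs and 4.07-fold and 4.34-fold in aMSCs, to P30 and P100 (adjusted p of 8.3e-07 or lower).

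Mad2l1 (Mad2), the subunit that changes shape on a free kinetochore, was near background at P2, with 4.47, 5.07 and 5.02 in yMSCs and 4.71, 4.68 and 4.85 in aMSCs. It read 5.27, 5.90 and 6.16 in yMSCs P30, 5.61, 5.70 and 5.77 in aMSCs P30, 5.76, 5.96 and 5.83 in yMSCs P100, and 5.70, 4.90 and 5.53 in aMSCs P100. In aMSCs it was detected on no array of P2, and was at least 1.60-fold higher at P30 and at least 1.28-fold higher at P100, where array 2 lay close to P2. Its call in aMSCs P100 (adjusted p = 0.0291) was lost without array 1 or 2 of aMSCs P2 and without array 1 or 3 of aMSCs P100 (adjusted p of 0.0708 to 0.135). In yMSCs, where 2 of 3 arrays of P2 detected it, it rose 1.89-fold to P30 and 1.99-fold to P100. The third checkpoint gene with a probe, Bub3, was not detected in any group, with a mean detection p of 0.234 to 0.511 by group. Nor were Ccnb1 (cyclin B1), at 0.298 to 0.691, or Cdc25b and Cdc25c, the phosphatases that switch Cdk1 on, at 0.0206 to 0.296 and 0.0517 to 0.244, so these probes say nothing of a change.

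Cdc20, the activator of the APC/C, read 6.57, 7.34 and 8.06 in yMSCs P2, 6.93, 7.32 and 7.19 in aMSCs P2, 9.19, 9.54 and 9.62 in yMSCs P30, 9.48, 9.51 and 9.70 in aMSCs P30, 9.63, 9.76 and 9.59 in yMSCs P100, and 8.32, 8.25 and 8.04 in aMSCs P100. The last group lies above the aMSCs P2 arrays but below every other late array, and its lowest array is under the highest of yMSCs P2. Cdc20 rose 4.37-fold and 5.05-fold in yMSCs, 5.34-fold in aMSCs P30 and 2.08-fold in aMSCs P100 (adjusted p = 0.00254).

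Ube2c (UbcH10), the ubiquitin-conjugating enzyme that works with the APC/C, likewise lay nearest to P2 in aMSCs P100 among the late groups. It read 6.71, 7.58 and 8.24 in yMSCs P2, 6.91, 7.38 and 7.66 in aMSCs P2, 8.41, 9.42 and 9.40 in yMSCs P30, 9.19, 9.31 and 9.50 in aMSCs P30, 9.39, 9.23 and 9.17 in yMSCs P100, and 7.84, 7.52 and 8.24 in aMSCs P100. The rise was 2.97-fold in yMSCs P30, 4.05-fold in aMSCs P30 and 3.38-fold in yMSCs P100. In aMSCs P100 the arrays overlap P2, with a change of 0.55 ± 0.33 and an adjusted p of 0.182.

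The 5 tested kinesins and spindle assembly genes, Tpx2, Kif15, Kif20b, Kif22 and Nusap1, rose in all 4 comparisons with P2. Tpx2, which activates Aurka and starts microtubules around the chromosomes, read 6.28, 7.11 and 7.60 in yMSCs P2, 6.83, 7.01 and 7.43 in aMSCs P2, 9.96, 9.53 and 9.32 in yMSCs P30, 10.02, 9.92 and 9.74 in aMSCs P30, 9.70, 9.69 and 9.57 in yMSCs P100, and 9.11, 9.59 and 8.83 in aMSCs P100. The lowest later array is more than 1 log2 unit above the highest of P2. Its rise of 6.09-fold in yMSCs P30 (2.61 ± 0.27, adjusted p = 1.24e-06) and of 6.31-fold in yMSCs P100 was the largest of all members in those comparisons, and in aMSCs it was 6.99-fold at P30 and 4.25-fold at P100.

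Kif15, a plus-end motor that helps keep the spindle bipolar, was detected on no array of P2, where it read 4.60 to 4.91, and on every later array, at 6.36 to 7.48. It was at least 4.10-fold and 4.26-fold higher in yMSCs P30 and P100 and at least 2.89-fold and 3.51-fold higher in aMSCs. Kif20b, a kinesin of late mitosis, rose 3.15-fold to 5.31-fold. Only 2 of 3 arrays of yMSCs P2 detected it, so its folds in yMSCs depend on the offset. There its log2 change went down to 1.57 at P30 and 1.73 at P100 under the alternatives. Kif22, the chromosome-bound motor also called Kid, rose 2.70-fold to 4.30-fold. Nusap1, a microtubule-binding protein of the spindle, changed least of the class. It read 5.60, 6.45 and 6.59 in yMSCs P2, 5.75, 6.07 and 6.07 in aMSCs P2, 7.21, 7.30 and 7.57 in yMSCs P30, 6.18, 6.68 and 7.64 in aMSCs P30, 7.33, 7.40 and 7.45 in yMSCs P100, and 7.13, 7.58 and 7.00 in aMSCs P100, again with arrays 1 and 2 of aMSCs P30 close to P2. The rise of 1.82-fold in aMSCs P30 (adjusted p = 0.0234) was lost without array 3 of that group (log2 change 0.47, adjusted p = 0.14) or without array 1 of aMSCs P2 (adjusted p = 0.081).

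Of the kinetochore genes, Cenpf, a large coiled-coil protein of the outer kinetochore, changed most. It read 5.07, 5.18 and 5.52 in yMSCs P2, 5.29, 5.54 and 5.59 in aMSCs P2, 7.84, 6.83 and 7.35 in yMSCs P30, 6.70, 7.31 and 7.68 in aMSCs P30, 7.32, 7.27 and 7.25 in yMSCs P100, and 6.92, 7.52 and 6.50 in aMSCs P100. No later array overlaps P2, and the rise was 2.83-fold to 4.24-fold. In yMSCs P2 Cenpf was detected on 2 of 3 arrays, so its folds in yMSCs depend on the offset. There its log2 change went down to 1.45 at P30 and 1.39 at P100 under the alternatives. Ndc80 and Spc25, of the complex that holds the ends of microtubules, rose 1.83-fold to 3.69-fold and 1.65-fold to 2.16-fold. Spc25 read 7.59, 8.12 and 8.44 in yMSCs P2, 7.86, 8.12 and 8.51 in aMSCs P2, 8.81, 9.12 and 9.22 in yMSCs P30, 9.21, 9.27 and 9.34 in aMSCs P30, 9.08, 9.09 and 9.13 in yMSCs P100, and 8.94, 8.77 and 8.95 in aMSCs P100. Its smallest gap to P2 was in aMSCs P100, where the fold was under 1.5 without array 1 of aMSCs P2 (log2 change 0.57).

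The chromosomal passenger proteins Incenp and Cdca8 (borealin), the central spindle proteins Prc1, Kif23, Racgap1 and Kif20a, and Ect2, which activates RhoA at the furrow, make up the 7 tested genes of the passenger and cytokinesis class. All 7 rose in 3 comparisons with P2, and 6 rose in aMSCs P30, where Ect2 was not called. Kif20a (Mklp2), the kinesin that carries the passenger complex to the central spindle, read 7.36, 8.03 and 8.55 in yMSCs P2, 7.33, 7.77 and 7.92 in aMSCs P2, 10.61, 9.85 and 9.88 in yMSCs P30, 9.91, 10.08 and 10.30 in aMSCs P30, 10.02, 10.08 and 10.05 in yMSCs P100, and 9.50, 10.28 and 9.21 in aMSCs P100. All later arrays lie above P2, and the rise was 4.38-fold and 4.20-fold in yMSCs and 5.37-fold and 3.98-fold in aMSCs. Kif23 and Racgap1, which together form centralspindlin, rose 2.51-fold to 3.43-fold and 2.91-fold to 4.12-fold, and Cdca8 2.72-fold to 5.23-fold. Racgap1 and Incenp were each detected on 2 of 3 arrays of yMSCs P2, so their folds in yMSCs depend on the offset. There the log2 change went down to 1.19 for Racgap1 and 1.13 for Incenp at P30 under the alternatives.

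Prc1, which bundles the microtubules of the central spindle, rose 2.67-fold to 3.05-fold in 3 comparisons and 1.71-fold in aMSCs P100. In that last group the arrays overlap P2 and the adjusted p of 0.0485 was lost when any of 12 single arrays was left out, with the smallest change without array 2 of aMSCs P100 (0.50, adjusted p = 0.225) or array 1 of aMSCs P2 (0.51, adjusted p = 0.22). Ect2 read 5.67, 6.42 and 6.35 in yMSCs P2, 6.09, 6.44 and 6.52 in aMSCs P2, 8.35, 7.56 and 7.74 in yMSCs P30, 5.62, 6.44 and 7.57 in aMSCs P30, 8.04, 8.13 and 8.13 in yMSCs P100, and 7.10, 8.05 and 7.32 in aMSCs P100. Arrays 1 and 2 of aMSCs P30 lie within or under P2, and the change there was 0.19 ± 0.37 (adjusted p = 0.69). It rose 3.33-fold and 3.87-fold in yMSCs and 2.20-fold in aMSCs P100, the last lost without array 1 of aMSCs P2 (adjusted p = 0.067) or array 2 of aMSCs P100 (adjusted p = 0.0911).

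Condensin folds the chromosomes, and its ATPase pair Smc2 and Smc4 rose least of the classes with more than 1 gene, with a median change of 1.16 and 1.14 in yMSCs and 0.82 and 0.56 in aMSCs, to P30 and P100. Smc2 read 6.84, 7.19 and 7.62 in yMSCs P2, 7.18, 7.47 and 7.51 in aMSCs P2, 9.06, 8.36 and 8.25 in yMSCs P30, 8.45, 8.41 and 8.61 in aMSCs P30, 8.39, 8.48 and 8.56 in yMSCs P100, and 7.94, 8.39 and 7.67 in aMSCs P100. Its later arrays lie above P2 throughout, though by little in aMSCs P100, where the 1.53-fold rise (adjusted p = 0.034) was lost without array 1 or 2 of either aMSCs P2 or aMSCs P100 (adjusted p of 0.0572 to 0.161). Smc4 read 6.81, 6.97 and 7.02 in yMSCs P2, 6.95, 7.35 and 7.36 in aMSCs P2, 8.39, 8.01 and 7.33 in yMSCs P30, 7.86, 7.50 and 7.94 in aMSCs P30, 7.81, 7.95 and 8.07 in yMSCs P100, and 7.69, 7.94 and 7.53 in aMSCs P100. It rose 1.97-fold and 2.01-fold in yMSCs and was not called in aMSCs, with 1.46-fold at P30 (adjusted p = 0.0457) and 1.41-fold at P100 (adjusted p = 0.0655).

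Cdca3, which helps degrade the Cdk1 inhibitor Wee1, was detected in the 4 later groups only. It read 4.68, 5.26 and 5.70 in yMSCs P2, 4.90, 4.88 and 5.41 in aMSCs P2, 5.63, 6.25 and 6.17 in yMSCs P30, 7.13, 7.09 and 6.87 in aMSCs P30, 6.41, 6.51 and 6.41 in yMSCs P100, and 6.10, 5.59 and 6.24 in aMSCs P100. The aMSCs P30 arrays are the highest and overlap no other group. At P2 2 of 3 arrays of yMSCs and 1 of 3 of aMSCs detected it, so its folds against P2 are set against a mean near background and depend on the offset. The fitted rise was 3.91-fold in aMSCs P30 and 2.35-fold and 1.88-fold in yMSCs and aMSCs P100. Its 1.74-fold rise in yMSCs P30 (adjusted p = 0.0127) was lost without array 1 of yMSCs P2 (adjusted p = 0.0832) or array 2 of yMSCs P30 (adjusted p = 0.0532).

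From P30 to P100 no member was called in the young cells, and 9 fell in the aged cells. In yMSCs none of the 32 was called higher or lower by limma, against 3.39% of all genes higher and 4.50% lower, and at an unadjusted p under 0.05 there were 1 higher and 1 lower. The members' median change was 0.06, and single changes ran from -0.39 for Melk to 0.52 for Incenp. In aMSCs none rose beside the 9 that fell, against 12.2% of all genes lower and 14.2% higher. There the median change of the members was -0.36, against -0.04 over all genes.

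**Figure D4:**
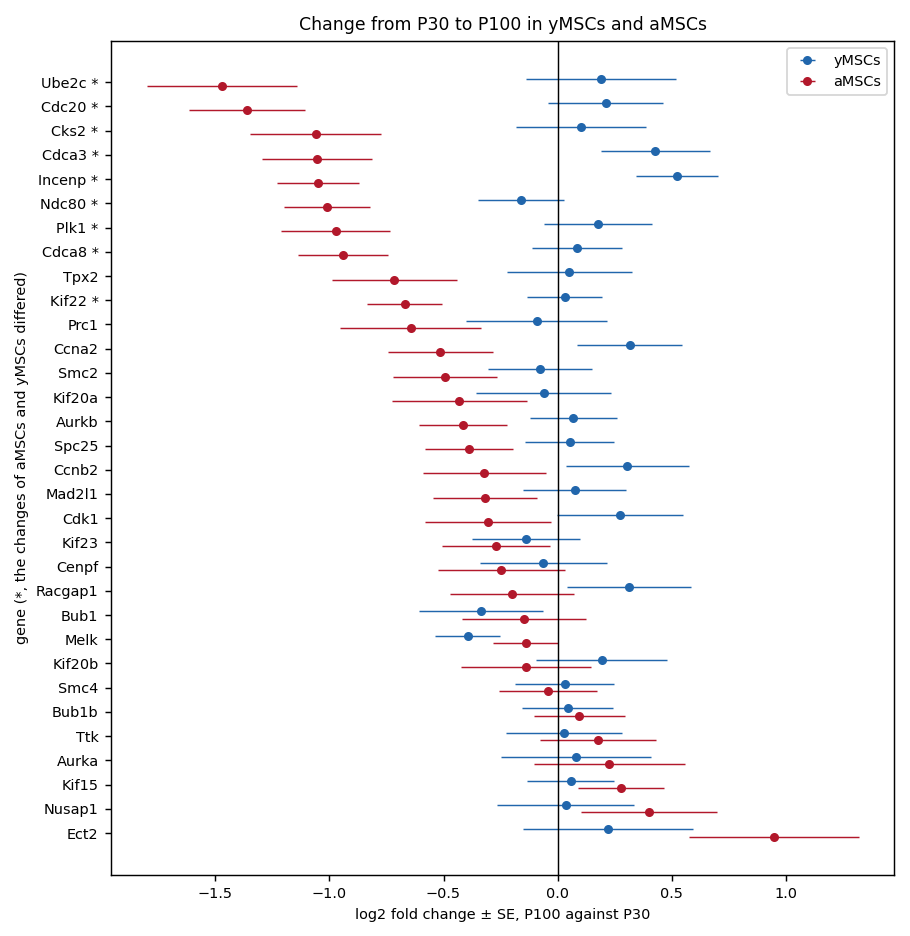
Log2 fold change of P100 against P30 for each tested member, with its standard error, in yMSCs (blue) and aMSCs (red); an asterisk marks members whose change differed between the donor ages by the interaction test. The yMSCs points stay within 0.52 of 0, while 9 aMSCs points were called lower, down to -1.47 for Ube2c.

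The 9 were Ube2c, Cdc20, Cks2, Cdca3, Incenp, Ndc80, Plk1, Cdca8 and Kif22. Ube2c fell by 1.47 ± 0.33 (2.77-fold, adjusted p = 0.00259) and Cdc20 by 1.36 ± 0.25 (2.57-fold, adjusted p = 0.000589), so both tested APC/C genes were among them. Incenp, the scaffold of the passenger complex, read 7.33, 7.65 and 7.51 in aMSCs P30 and 6.34, 6.52 and 6.48 in aMSCs P100, against 5.61, 5.57 and 5.46 in aMSCs P2. Its P100 arrays thus stand clear of both other passages, and it fell by 1.05 ± 0.18 (adjusted p = 0.000264). In yMSCs Incenp went from 7.21, 6.95 and 6.83 at P30 to 7.26, 7.51 and 7.78 at P100, a change of 0.52 ± 0.18 that was not called (adjusted p = 0.0854).

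Ndc80, which read 8.17, 8.30 and 8.69 in aMSCs P30 and 7.44, 7.37 and 7.33 in aMSCs P100, fell by 1.01 ± 0.19 (adjusted p = 0.00059). Cdca8 fell by 0.94 (adjusted p = 0.00154), Plk1 by 0.97 (adjusted p = 0.0049), Cdca3 by 1.05 (adjusted p = 0.00299) and Kif22 by 0.67 (adjusted p = 0.00498). In each of these the P100 arrays lay below the P30 arrays without overlap. Cks2 fell by 1.06 (adjusted p = 0.00902), and its call was lost without array 2 of aMSCs P100 (-0.81, adjusted p = 0.051). Of the members with no call, Ect2 had the largest positive change, 0.95 ± 0.37 (adjusted p = 0.0585), with overlapping arrays. Ttk, Bub1b and Kif15 changed by 0.18, 0.10 and 0.28 between the 2 passages in aMSCs, none of them called. Without arrays 1 and 2 of aMSCs P30, on which Ect2, Aurka and Nusap1 read low, 6 of the 9 calls were left.

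At P2 no difference between the donor ages was called in these genes. None of the 32 members was called between aMSCs and yMSCs by limma, against 1.76% of all genes higher and 2.29% lower, and none had an unadjusted p under 0.05. The changes ran from -0.36 to 0.31, with a median of -0.07, and the arrays of the groups overlapped for every member. At P30 there was 1 higher and 1 lower, against 8.12% and 9.53% of all genes. Cdca3 was 2.02-fold higher in aMSCs (1.01 ± 0.24, adjusted p = 0.00646) with no overlap of arrays. Without arrays 1 and 2 of aMSCs P30, which leaves array 3 alone in that group, the difference of Cdca3 was 0.85. Ect2 was 2.53-fold lower (-1.34 ± 0.37, adjusted p = 0.0164), but with overlap, and this call was lost without array 1 of aMSCs P30 (-0.87, adjusted p = 0.107), array 2 of aMSCs P30 (-1.29, adjusted p = 0.0622) or array 1 of yMSCs P30 (-1.11, adjusted p = 0.0672).

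At P100, 8 members were lower in aMSCs than in yMSCs and none higher, against 9.03% of all genes lower and 10.0% higher. The median over the 32 was -0.47, against -0.02 over all genes. Cdc20 was 2.74-fold lower (-1.46 ± 0.25, adjusted p = 0.000411), Ube2c 2.64-fold (-1.40 ± 0.33, adjusted p = 0.00474) and Incenp 2.10-fold (-1.07 ± 0.18, adjusted p = 0.000293). These 3 calls, and no other of the 8, were kept under every alternative run. Ccna2 was 1.88-fold lower (adjusted p = 0.00771), with 9.95, 9.94 and 9.96 in yMSCs against 8.91, 9.24 and 8.96 in aMSCs, a gap wider than the spread in either group, and lost its call only when a fold of 2 was asked.

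The other 4 were nearer to the threshold. Cks2 was 1.87-fold lower (adjusted p = 0.0283) and Cdk1 1.78-fold (adjusted p = 0.0385), and leaving out any of the yMSCs P100 arrays ended either call (adjusted p of 0.0644 to 0.101), as did leaving out array 2 of aMSCs P100 (0.142 and 0.147), array 1 for Cks2 (0.087) or array 3 for Cdk1 (0.0576). Plk1 was 1.60-fold lower (adjusted p = 0.0465) and Cdca8 1.59-fold (adjusted p = 0.0201). The call of Plk1 was lost without any of 13 single arrays, with an adjusted p of up to 0.151 without array 1 of yMSCs P100, and with the replicate number as a block it had an adjusted p of 0.0542. That of Cdca8 was lost without array 1 of yMSCs P100 or array 1 or 2 of aMSCs P100 (adjusted p of 0.0533 to 0.0685). Without array 1 of yMSCs P100, 4 of the 8 calls were left.

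Whether the change with passage differed between the donor ages was tested as an interaction. From P2 to P30, 1 member had a larger change in aMSCs and none a smaller one, against 5.81% and 5.97% of all genes. From P2 to P100, 2 members had a smaller change in aMSCs and none a larger one, against 5.58% and 8.16% of all genes. From P30 to P100, 9 members had a lower change in aMSCs and none a higher one, against 10.5% and 11.4% of all genes. Of 32 members, 1 and 2 lie near the share of all genes called in that direction, and 9 lie above it. However, only 5 were left without array 1 of yMSCs P100 and 4 with no detection filter, which is nearer to that share. Incenp had the lowest adjusted p of the members in both tests that involve P100, with a difference of -1.31 ± 0.25 from P2 to P100 (adjusted p = 0.00162) and of -1.57 ± 0.25 from P30 to P100 (adjusted p = 0.000295), both kept under every alternative run.

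Across the 18 arrays, the member that followed the mean of the other members most closely was Aurkb (Pearson r = 0.994), then Ccna2 (0.987) and Kif23 (0.982). The least alike were Cks2 (0.671), Ect2 (0.724) and Cdca3 (0.832). All of these include the step from P2. Over the 12 later arrays alone r was 0.924 for Aurkb and 0.156 for Cdca3, and over the 6 arrays of P2 it was 0.918 and 0.937. Outside the list, the 10 named genes most alike over the 18 arrays were Cep72, Cdca2, Kifc1, Traip, Mastl, Arhgap11a, Ezh2, Mcm3, Iqgap3 and Mcm7, with r from 0.989 to 0.976. The arrays of a group share their source, so r is given as a description.

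A further list of 125 genes of mitosis, with none of the 50 in it, had 73 tested genes. From P2 to P30, 47 of these rose and 1 fell in yMSCs, against 16.4% of all genes higher and 16.4% lower. In aMSCs 45 rose and 7 fell, against 19.3% higher and 20% lower. From P2 to P100, 46 rose and 2 fell in yMSCs, against 20.6% higher and 18.7% lower. In aMSCs 37 rose and 2 fell, against 19.1% higher and 18.6% lower. The median change of the 73 was 0.83, 0.84, 0.83 and 0.60, under that of the 32 members in each comparison. Aspm, which focuses spindle poles, had the largest change, rising by 2.67, 2.75, 2.83 and 2.40 on the log2 scale in the same order. Cdca2, which brings a phosphatase to chromosomes at anaphase, rose by 1.94, 2.18, 2.28 and 1.47. Fbxo5 (Emi1), an inhibitor of the APC/C, and Kntc1 (Rod), which brings checkpoint proteins and dynein to kinetochores, were among the first 6 by adjusted p in 4 and in 3 of the comparisons.

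Some genes of that list fell, kinetochore and APC/C genes among them. In each comparison with P2 they were a smaller share of the list than the share of all genes called lower. Ensa, a phosphatase inhibitor that is switched on in mitosis, fell in yMSCs P30 (-0.66), aMSCs P30 (-1.05) and yMSCs P100 (-0.69). Cdc23, a core subunit of the APC/C, fell in aMSCs P30 (-1.88 ± 0.40) and yMSCs P100 (-1.11 ± 0.40). In aMSCs P30 Mapre1 (EB1, at microtubule plus ends) fell by 2.52 ± 0.55 and Mis12 (a kinetochore base protein) by 2.46 ± 0.485. In the same group Stag2 (cohesin) fell by 1.19, Cdc26 (APC/C) by 0.81 and Cdc14a (a phosphatase) by 0.69. Array 3 of aMSCs P30 lay far from arrays 1 and 2, and how these falls depend on single arrays is not given here. Nsl1 (of the Mis12 complex) fell by 0.92 and Arpp19 (a relative of Ensa) by 0.63 in aMSCs P100. From P30 to P100, none of the 73 was called in yMSCs, against 3.39% of all genes higher and 4.50% lower. In aMSCs 11 fell and 7 rose, against 12.2% of all genes lower and 14.2% higher. At P100, 17 were lower in aMSCs than in yMSCs and none higher, against 9.03% of all genes lower and 10.0% higher.

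A list of 50 DNA replication genes, 42 of them tested, mostly rose from P2, as the members did. In this list 30 rose and 1 fell in yMSCs P30, 31 and 1 in aMSCs P30, 34 and 1 in yMSCs P100, and 26 and 3 in aMSCs P100. Of all genes, 16.4% to 20.6% were called higher and 16.4% to 20% lower in these comparisons with P2. From P30 to P100 in aMSCs 10 of the 42 fell and 1 rose, against 12.2% of all genes lower and 14.2% higher. At P100, 20 were lower in aMSCs than in yMSCs and 1 higher, against 9.03% of all genes lower and 10.0% higher. Of 17 tested macrophage genes, 16 fell at P30 and 14 at P100 in yMSCs, against 16.4% and 18.7% of all genes. In aMSCs 10 fell at either passage, against 20% at P30 and 18.6% at P100. In aMSCs P100 2 rose, against 19.1% of all genes, and none rose in the other 3 comparisons with P2. All but Cd14, Emb, Lgals3 and Cyba of the 17 were detected at P2 only. They passed the detection filter through P2 alone, so these counts of falls could hardly have come out otherwise. Of 26 macrophage markers with a probe, 17 were detected in yMSCs P2, 10 in aMSCs P2 and 4 in each later group, namely Cd14, Emb, Lgals3 and Cyba, which are not limited to macrophages. Their summed level per array was 11200 to 17840 in yMSCs P2 and 9821 to 11400 in aMSCs P2, then 4800 to 7546 in yMSCs P30, 9288 to 11330 in aMSCs P30, 7007 to 7221 in yMSCs P100, and 5603 to 8473 in aMSCs P100. Of the defining markers, Aif1 had a mean log2 signal of 9.21 and 8.34 at P2 in yMSCs and aMSCs and 4.38 to 4.53 later, Cd68 7.92 and 6.41 at P2 and 4.62 to 4.87 later, both detected at P2 only, and C1qa and Tyrobp were detected in yMSCs P2 only. Ptprc was detected in no group, and Csf1r has no probe here.

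The summed level of aMSCs P30 overlaps that of aMSCs P2, while in the other late groups it lies below P2 of the same donor age. This overlap is not one of the defining markers: from aMSCs P2 to aMSCs P30, Aif1 went from 8.34 to 4.46 and Cd68 from 6.41 to 4.87. Lgals3 and Cyba, not limited to macrophages, had the highest mean log2 signals of these markers in aMSCs P30, 11.79 and 12.58. Cyba read 12.48 in aMSCs P2 and 5.67 in aMSCs P100. The part of these markers in the members' change from P2 was not tested.

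**Figure D5:**
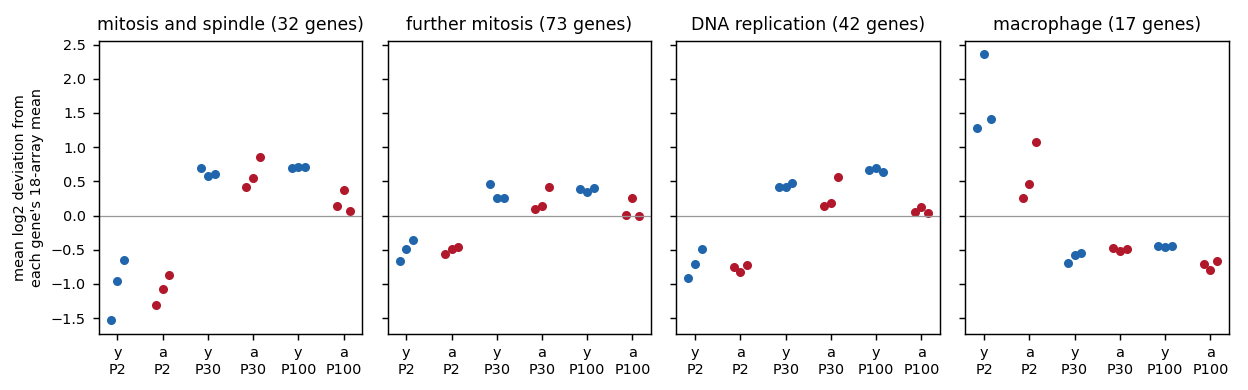
Mean deviation of log2 signal from each gene's 18-array mean, for 4 lists on each array: the 32 members, 73 further mitosis genes, 42 DNA replication genes and 17 macrophage genes. The members' points run from -1.53 to -0.64 at P2 and from 0.06 to 0.85 later, with the 3 arrays of aMSCs P100 the lowest of the later ones.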

How the data were processed

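Total RNA of 18 MSC samples (6 groups, 3 arrays each) had been hybridised to RatRef-12 BeadChips. The authors deposited for each of 22226 probes the scanner intensity, not background-subtracted, and a detection p-value, the probe's rank among the negative control beads of its array (825 steps). A second deposited table holds intensities background-subtracted and rank invariant normalized in BeadStudio 3, which served as an alternative, floored at 16. Arrays have no read depth: the number of arrays limits the precision, and folds of probes near background are compressed by the offset.

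Groups and replicate numbers came from the labels. Gene names came from the platform annotation, which gives 13192 probes a symbol and 9034 none, and 70 probes that did not pair between both tables were kept unnamed. For several probes of a gene the brightest was used, and each member has 1. Log2 values came from limma 3.58.1 (R 4.3.3), whose function neqc corrects background by normexp on the detection p-values, adds an offset, here 16, and quantile normalizes. Genes with a mean detection p of at most 0.01 in at least 1 group were tested, 9531 in all and 6837 of them named. The model had 6 group means over all 18 arrays (12 residual and 4.51 prior degrees of freedom). In each of 12 comparisons the Benjamini-Hochberg adjustment was made over all tested genes, with no adjustment across the comparisons. A probe detected on no array of P2 was given a lower bound, the late mean over the mean of, per array, the higher of its own signal and the lowest detected signal. A fitted change is on the scale of log2(value + offset).

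Promoters were read from the RefSeq table for GRCr8 by gene symbol, and the figures were drawn with matplotlib 3.10.9. Genes were named by a rule: in each role the largest and smallest mean change from P2, the 5 largest and 3 smallest changes by comparison, up to 8 calls by adjusted p in the other comparisons, and members not detected in a group. The members and lists were chosen with earlier results of these data known. Tested on simulated data for yMSCs P30 against P2 over 9531 genes, 15, 37, 49 and 49 of 50 genes with folds of 1.5, 2, 3 and 4 were recovered, with 9 false calls. Alternatives were the replicate number as a block, no quantile normalization, the BeadStudio values, an offset of 50, other detection filters, means over probes, array weights, only the arrays compared, other folds, and leaving out each array.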

Additional observations from a re-analysis of the deposited data

Results flagged for a closer look

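Each of these members changed with passage by a different amount in aMSCs than in yMSCs by the interaction test of limma, with adjustment over all tested genes. Values are the log2 change in aMSCs minus that in yMSCs. From P2 to P30, Cdca3 had a difference of 1.16 ± 0.34 (SE, adjusted p = 0.0346), which was lost without any of 7 single arrays (adjusted p of 0.0648 to 0.0902). From P2 to P100, Incenp had -1.31 ± 0.25 (adjusted p = 0.00162) and Cdc20 -1.28 ± 0.36 (adjusted p = 0.023), the latter lost without array 2 of aMSCs P2 (adjusted p = 0.0619) or of yMSCs P100 (adjusted p = 0.0562).

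From P30 to P100, Incenp had -1.57 ± 0.25 (adjusted p = 0.000295), Cdc20 -1.57 ± 0.36 (adjusted p = 0.00496), Cdca3 -1.48 ± 0.34 (adjusted p = 0.00521), Cdca8 -1.03 ± 0.28 (adjusted p = 0.0145) and Ube2c -1.66 ± 0.46 (adjusted p = 0.0174), and these 5 kept their call whichever single array was left out. Plk1 had -1.15 ± 0.34 (adjusted p = 0.0217), lost without array 2 of aMSCs P30 (adjusted p = 0.0536) or array 1 of yMSCs P100 (adjusted p = 0.0563). Ndc80 had -0.85 ± 0.27 (adjusted p = 0.0301), Kif22 -0.70 ± 0.23 (adjusted p = 0.0397) and Cks2 -1.16 ± 0.40 (adjusted p = 0.0477), lost without any of 5, 12 and 13 single arrays. In all 9 the change was negative in aMSCs, and in yMSCs none was called.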

How the results depend on the processing

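No called value of a member changed direction under any alternative. Of these values, 1559 kept and 103 lost their call under the planned settings, and 2645 and 109 with 1 array left out. A first setting chosen after seeing the data left out arrays 1 and 2 of aMSCs P30. That leaves 1 array there, so its calls are not counted here. A second such setting left out array 1 of yMSCs P30, array 3 of aMSCs P30 and array 2 of aMSCs P100. The cause of a lost call was not tested. Against P2, with 1 array left out, 30 to 32 members were called at P30 and 30 to 32 at P100 in yMSCs, and 28 to 30 and 24 to 29 in aMSCs. Other planned settings gave 27 to 32 and 28 to 32 in yMSCs and 26 to 31 and 24 to 29 in aMSCs, and a fold of 2 gave 28 and 29, and 26 and 21.

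An offset of 50, which shrinks changes of low signals by construction, lowered the median change from P2 to 1.46 at P30 and 1.53 at P100 in yMSCs and to 1.38 and 1.04 in aMSCs, and with no quantile normalization it was 1.57 in yMSCs P100. There the median of all genes moved to -0.11, -0.14 and -0.15 in yMSCs P30, aMSCs P30 and yMSCs P100, with the BeadStudio values to -0.10 in yMSCs P30. With 1 array left out the members' median ran from 1.46 to 1.94 in yMSCs P30 and from 1.60 to 2.08 in yMSCs P100, the ends being without array 1 and array 3 of yMSCs P2. The same 2 arrays moved the median difference between donor ages from -0.10 to 0.32 for P2 to P30, and from -0.65 to -0.20 for P2 to P100. Leaving out arrays 1 and 2 of aMSCs P30 leaves array 3 alone in that group. The median was then 2.13 for aMSCs P30 against P2 and -0.66 for P100 against P30 in aMSCs. It was 0.26 between donor ages at P30 and -0.77 for the difference in the change from P30 to P100.

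Small counts moved most. P100 against P30 in yMSCs, with 0 calls, had 1 with array weights (whose estimate stopped before convergence) and 1 without the 3 far arrays. In aMSCs it had 9, and 9 to 12 with 1 array left out. Between donor ages at P30 the 2 calls were 1 with genes detected in all 6 groups or only the arrays compared, and 5 with array weights. They were 6 without the 3 far arrays, and 1 to 5 with 1 array left out, the 5 without array 3 of aMSCs P30. At P100 the 8 were 4 with no quantile normalization or array weights, 5 with no detection filter, 3 at a fold of 2, and 4 to 9 with 1 array left out. The 1 call for P2 to P30 was 0 with no quantile normalization, the BeadStudio values, no filter, genes detected in all 6 groups, or only the arrays compared. It was 4 with array weights or without the 3 far arrays, and 0 to 4 with 1 array left out. The 2 for P2 to P100 were 1 with no quantile normalization or no filter, 5 without the 3 far arrays, and 1 to 4 with 1 array left out. The 9 for P30 to P100 were 4 with no filter, and 5 to 10 with 1 array left out, the 5 without array 1 of yMSCs P100.

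Of 45 correlations between same-numbered arrays of different groups the range was -0.716 to 0.569, and in 0 of 15 pairs of groups were all 3 over 0.1. These correlations gave no steady pairing by replicate number. The members' order at P2 was alike in both donor ages, though: array 1 was lowest for 31 and 26 of the 32, and array 3 highest for 28 and 28. With the replicate block 32, 30, 32 and 29 members were called against P2, 0 and 9 for P100 against P30, 0, 3 and 7 between donor ages at P2, P30 and P100, and 1, 3 and 9 in the interactions.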
